A study of Homo sapiens with 24 samples.

Results

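Chromosome 19 carries the densest collection of C2H2 zinc finger genes in the human genome. The genes described here are the protein-coding genes of chromosome 19 whose symbol is ZNF followed by a digit, taken from the hg19 (GRCh37) version of GENCODE release 44. There were 249 of them among 20163 protein-coding genes, and 3 of the 249 are read-through loci with hyphenated symbols (ZNF559-ZNF177, ZNF625-ZNF20 and ZNF816-ZNF321P). They were compared with the other 1231 protein-coding genes of chromosome 19 and with the 266 ZNF genes of other chromosomes. A promoter here is the stretch within 1 kb of the transcription start site (TSS) of any protein-coding transcript of a gene, 2 kb wide in all for a single TSS, and it carries a mark in a library when at least 1 bp of a peak lies in it.

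Most proteins of this family pair a row of C2H2 fingers, which read a DNA sequence, with a KRAB domain. The KRAB domain recruits TRIM28, which brings the H3K9 methyltransferase SETDB1 and heterochromatin proteins to the bound site, and many of these proteins silence retroelements. The genes arose by repeated tandem duplication, so that neighbours in a cluster resemble each other in sequence, and they typically keep their fingers in a single long exon at the end of the gene.

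The chromatin profiles came from PANC-1, an established cell line from a pancreatic ductal carcinoma, by chromatin immunoprecipitation and sequencing (ChIP-seq). The siControl cells received a control siRNA and no TGFβ. The siControl+TGFβ cells received the control siRNA and, from the day after transfection, 10 ng/ml TGFβ for 48 h, and the siPHF13+TGFβ cells received an siRNA against PHF13 with the same TGFβ. TGFβ drives epithelial-mesenchymal transition in these cells, and PHF13 is a reader of methylated H3K4. For each group, H3K4me3 (found at promoters), H3K27ac (at active promoters and enhancers) and H3K27me3 (Polycomb-repressed chromatin) were profiled in 2 libraries, which gave 18 peak lists called separately. Nothing in the labels says whether the 2 libraries of a group came from separate cultures, so the p-values measure only the spread between libraries. Where 6 values are given for a mark, they follow the library order of siControl replicates 1 and 2, then siControl+TGFβ replicates 1 and 2, then siPHF13+TGFβ replicates 1 and 2. All groups are transiently transfected cells of a single line, and no untransfected cells were profiled.

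Library facts that touch these results were as follows. H3K4me3 lists held 27869 to 39202 peaks, H3K27ac lists 6004 to 36104 and H3K27me3 lists 59573 to 165717, and siPHF13+TGFβ replicate 1 had the shortest list for all 3 modifications. The 6004 H3K27ac peaks of that library stood far below the 19413 of the next shortest list. Some values that rest on this library are therefore given with and without it, and others only with it. Peak lists hold no read counts. Peak names written in the lists go against the labels: the 6 lists labelled siPHF13+TGFβ carry NCT, the abbreviation the study uses for siControl+TGFβ, and the 6 labelled siControl+TGFβ carry 3AT. Groups were taken from the labels, and with these labels exchanged each direction given below for PHF13 depletion would be the opposite and the TGFβ comparison would be of other libraries. Of 5 ductal and epithelial markers, KRT8, KRT18, KRT19 and SOX9 carried H3K4me3 in all 6 lists and KRT7 in none, and none of 5 markers of other cell types (PTPRC, CD3E, ALB, INS, PRSS1) carried it in any list.

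Promoter sequences of 6 of the zinc finger genes show the contrast that the following values turn on. Each is the 200 bases before the TSS of the canonical transcript on the coding strand of the GRCh37 sequence, 5′ to 3′, with every CG dinucleotide in capitals, and none of these bases lies in an annotated exon. The first pair are relatives from the 19.8 to 24.3 Mb cluster, of which ZNF729 lacked H3K4me3 in all 6 lists and ZNF91 carried it in all 6.
ZNF729 (chr19:22469043-22469242, plus strand): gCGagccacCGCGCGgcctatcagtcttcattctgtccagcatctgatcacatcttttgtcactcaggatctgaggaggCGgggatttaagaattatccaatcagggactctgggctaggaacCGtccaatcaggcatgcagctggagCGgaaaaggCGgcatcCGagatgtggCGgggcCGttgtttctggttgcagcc
ZNF91 (chr19:23578274-23578473, minus strand): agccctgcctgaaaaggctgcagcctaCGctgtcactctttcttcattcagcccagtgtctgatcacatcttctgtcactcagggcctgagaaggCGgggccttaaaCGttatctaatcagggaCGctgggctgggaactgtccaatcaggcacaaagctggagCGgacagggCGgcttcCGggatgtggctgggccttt
The second pair are relatives near the end of the long arm, of which ZNF154 lacked H3K4me3 in all 6 lists and ZNF552 carried it in all 6.
ZNF154 (chr19:58220573-58220772, minus strand): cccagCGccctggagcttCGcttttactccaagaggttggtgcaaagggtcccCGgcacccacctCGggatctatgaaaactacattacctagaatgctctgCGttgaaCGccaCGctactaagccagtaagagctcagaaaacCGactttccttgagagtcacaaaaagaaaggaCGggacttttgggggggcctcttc
ZNF552 (chr19:58326282-58326481, minus strand): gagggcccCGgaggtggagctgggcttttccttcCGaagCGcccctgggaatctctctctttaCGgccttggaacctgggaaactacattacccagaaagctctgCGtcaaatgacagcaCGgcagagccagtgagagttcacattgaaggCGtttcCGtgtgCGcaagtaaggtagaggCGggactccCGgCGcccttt
The last pair are CG-rich promoters at the extremes, ZNF132 without H3K4me3 in any list and ZNF792 with both H3K4me3 and H3K27me3 in every list.
ZNF132 (chr19:58951521-58951720, minus strand): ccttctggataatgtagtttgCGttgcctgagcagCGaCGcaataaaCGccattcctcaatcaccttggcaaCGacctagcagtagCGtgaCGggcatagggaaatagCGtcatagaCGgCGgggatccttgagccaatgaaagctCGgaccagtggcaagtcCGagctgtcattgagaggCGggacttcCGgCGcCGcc
ZNF792 (chr19:35455134-35455333, minus strand): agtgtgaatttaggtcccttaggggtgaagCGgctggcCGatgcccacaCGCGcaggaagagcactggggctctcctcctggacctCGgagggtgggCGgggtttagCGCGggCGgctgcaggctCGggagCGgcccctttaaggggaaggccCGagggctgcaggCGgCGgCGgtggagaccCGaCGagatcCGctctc
Aligned end to end, the ZNF729 and ZNF91 stretches were identical at 71.0% of aligned positions and those of ZNF154 and ZNF552 at 62.6%, against 50.2% to 56.6% for the other 13 pairs of these 6 sequences. The capitals show that the stretches without H3K4me3 are not poor in CG: ZNF729 holds 11 CG dinucleotides, ZNF154 9 and ZNF132 16, while ZNF91 holds 7, ZNF552 12 and ZNF792 18.

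H3K4me3 divided the zinc finger genes of chromosome 19 into a marked and an unmarked class. Their promoters carried it in all 6 lists at 218 genes and in none at 31, and 0 genes had it in 1 to 5 lists. The intermediate state was found at 63 of the 1231 other chromosome 19 genes (5.12%), at 3 of the 266 ZNF genes elsewhere (1.13%) and at 818 of all 20163 coding genes (4.06%). With the 5′ end of each gene as its only TSS, the counts were 199 in all 6 lists, 5 in 1 to 5 (ZNF490, ZNF536, ZNF565, ZNF614 and ZNF329) and 45 in none. With all start sites the share of zinc finger promoters with H3K4me3 was therefore 87.6% in every library, whatever its list length. Among the other chromosome 19 genes it lay between 65.8% and 68.7%. The difference averaged 20.0 percentage points (SD 1.17, n = 6 libraries, range 18.8 to 21.8) and was above 0 in 6 of 6 libraries (exact two-sided sign-flip permutation test over libraries, p = 0.0312, the smallest p that 6 libraries allow). Without siPHF13+TGFβ replicate 1 it was 19.7 points. Against the ZNF genes of other chromosomes the difference averaged −1.36 points and was below 0 in 6 of 6 libraries (SD 0.518, exact p = 0.0312). Of those 266 genes, 235 carried H3K4me3 in all 6 lists (88.3%), so the sign was the same in each library. The libraries count largely the same genes. Here and below, such a p-value therefore measures agreement between libraries and not the spread between genes.

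**Figure D1:**
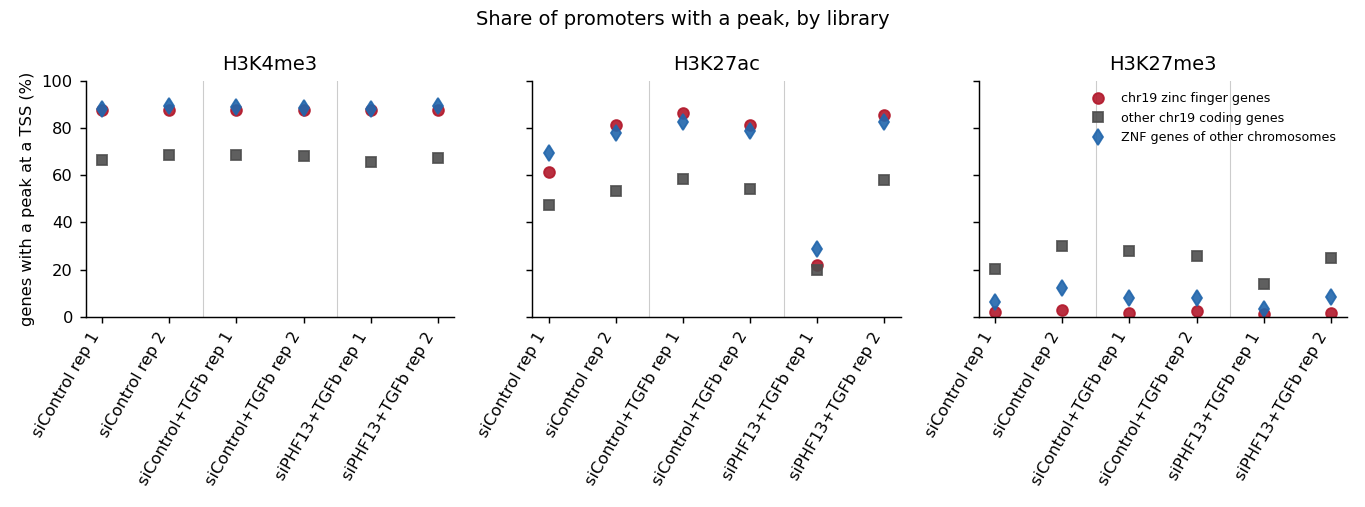
Share of genes (%) with a peak within 1 kb of a TSS in each of the 6 libraries, for H3K4me3, H3K27ac and H3K27me3; each point is a library's share over the chr19 zinc finger genes (n = 249, circles), the other chr19 coding genes (n = 1231, squares) or the ZNF genes of other chromosomes (n = 266, diamonds). The circles stay at 87.6% for H3K4me3, fall to 22.1% for H3K27ac in siPHF13+TGFβ replicate 1, and lie between 1.20% and 2.81% for H3K27me3.

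The shape of the H3K4me3 domain also set these promoters apart. Where H3K4me3 was present in all lists, peaks covered between 95.7% and 97.7% of the bin centred 150 bp downstream of the TSS, averaged over the 218 zinc finger genes, and between 80.4% and 90.2% over the 800 other chromosome 19 genes. At 1950 bp downstream the zinc finger genes were at 0.459% to 1.17% and the others at 3.77% to 9.22%. Averaged over these genes, the coverage around the TSS was thus compact: it began before the TSS, reached its plateau just inside the gene and ended well before 2 kb. This average does not describe the rest of the gene. Per library, 30.9% to 52.2% of all 249 zinc finger genes had an H3K4me3 peak in the gene body outside TSS windows. Among the other 1231 chromosome 19 genes the share was 28.0% to 45.1%. These shares do not allow for gene length, whose median was 25.9 kb for the zinc finger genes and 13.8 kb for the others. Of the gene body bases outside TSS windows, H3K4me3 covered 0.285% to 0.792% in the zinc finger genes and 0.812% to 1.90% in the others. The zinc finger genes had the lower share of bases in each of the 6 libraries. Peak width at the TSS had a median over the zinc finger genes of 1570, 1636, 1745, 1704, 1447 and 1616 bp in library order, so that the TGFβ libraries of the control siRNA were the widest. The 6 medians rank as the lengths of the H3K4me3 lists do, from 1447 bp with 27869 peaks to 1745 bp with 39202. The part of list length in these widths was not tested. The medians over the other chromosome 19 genes were higher in each of the 6 libraries, at 1470 to 1967 bp.

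**Figure D2:**
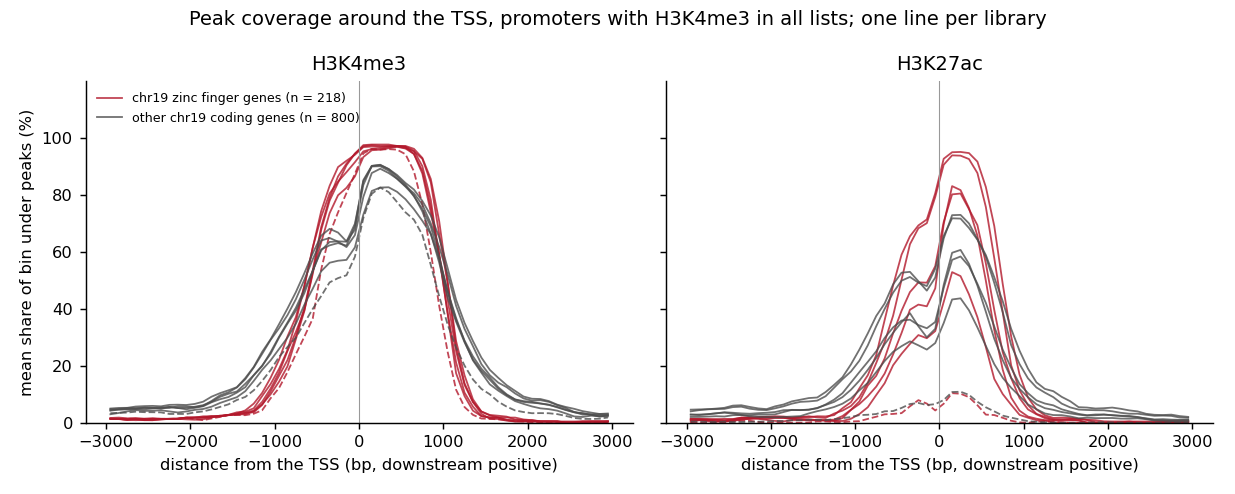
Mean share (%) of each 100-bp bin that lies under peaks, against the distance from the TSS (bp, downstream positive), for H3K4me3 (left) and H3K27ac (right); each line is a library, in red for the 218 chr19 zinc finger genes and in grey for the 800 other chr19 coding genes with H3K4me3 in all lists, and siPHF13+TGFβ replicate 1 is dashed. The red H3K4me3 lines rise above the grey ones at the TSS (95.7% to 97.7% at 150 bp) and fall below them by 1950 bp (0.459% to 1.17%).

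The widest domains belonged to genes with several start sites, and the width adds up the peaks of all of them. ZNF331, a KRAB gene described as a tumour suppressor that is often methylated in cancers, has 18 annotated TSSs and had H3K4me3 peaks of 5632, 5505, 5927, 5645, 4421 and 5603 bp in library order. ZNF875, with 19 TSSs, followed at a mean of 4691 bp over the 6 libraries. After these came ZNF581 at 4540 bp, ZNF846 at 4225 bp and ZNF790 at 4201 bp. The narrowest were ZNF730, the first marked gene after the unmarked stretch described below, at 348, 379, 397, 360, 360 and 404 bp, and ZNF541, a gene known for its role in the male germ line, at 576, 868, 695, 592, 184 and 597 bp.

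Along the chromosome the zinc finger genes fell into 21 groups when neighbours within 500 kb of each other were joined, from single genes such as ZNF557 and ZNF507 to 43 genes between 57.7 and 59.0 Mb (ZNF264 to ZNF446). In 13 of the groups all members carried H3K4me3, among them the 26 genes of the 11.6 to 12.7 Mb group (ZNF653 to ZNF791). The lowest share in a group of more than 10 was 73.0%, for 27 of the 37 genes between 19.8 and 24.3 Mb (ZNF101 to ZNF254), followed by 12 of the 16 between 56.0 and 57.2 Mb (ZNF628 to ZNF835). The groups of 40 genes (52.1 to 54.0 Mb, ZNF175 to ZNF331) and 43 genes stood at 85.0% and 86.0%, and those of 26 (36.7 to 38.3 Mb, ZNF565 to ZNF573) and 23 genes (ZNF575 to ZNF180, up to 45.0 Mb) at 96.2% and 95.7%.

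**Figure D3:**
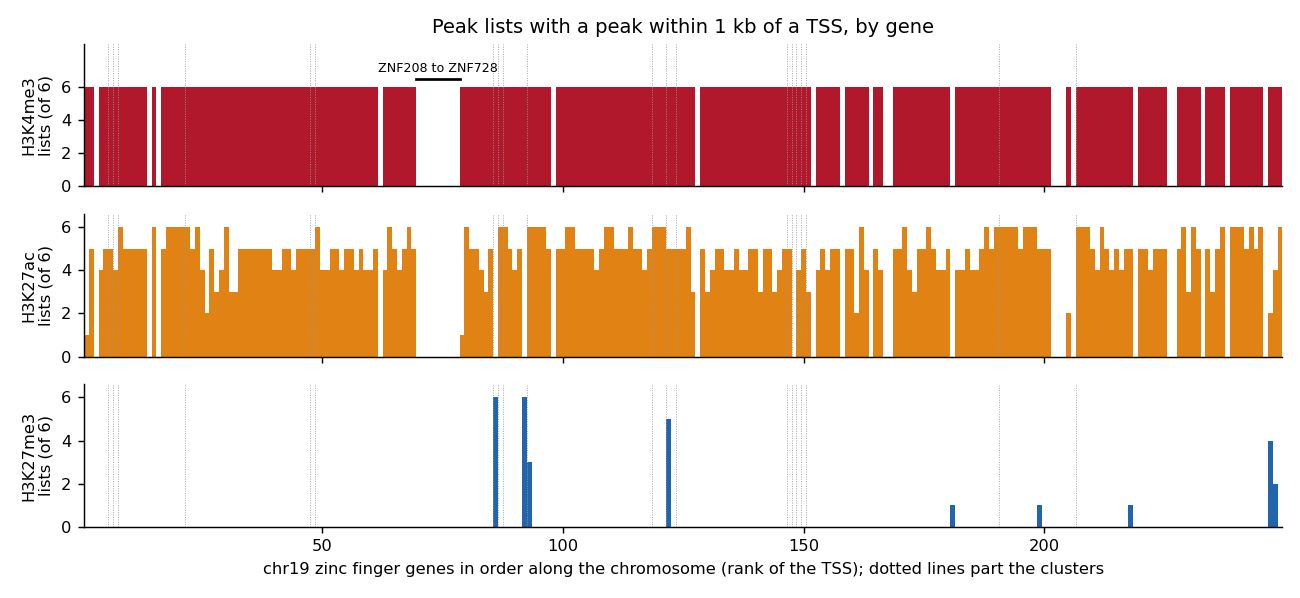
Number of peak lists (0 to 6, vertical axes) with a peak within 1 kb of a TSS for each of the 249 zinc finger genes, ordered by TSS along chromosome 19 (horizontal axis, rank) for H3K4me3, H3K27ac and H3K27me3; dotted lines part the 21 groups. H3K4me3 bars stand at 6 or 0 only, the line over the top panel marks the 9 neighbouring genes from ZNF208 to ZNF728 at 0, and H3K27me3 appears at 9 genes.

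Of the 10 unmarked genes between 19.8 and 24.3 Mb, 9 lay in a single stretch and ZNF714 stood alone between ZNF430 and ZNF431. The 9 consecutive genes ZNF208, ZNF257, ZNF676, ZNF729, ZNF98, ZNF492, ZNF99, ZNF723 and ZNF728 all lacked H3K4me3 in all 6 lists. From the first to the last of their start sites the stretch ran over 992 kb (chr19:22193745-23185978) and held no TSS of another protein-coding gene. In all 18 lists together it held 1 peak, a 151-bp H3K27me3 peak in siControl replicate 2. On its borders ZNF43 and ZNF730 carried H3K4me3 in all 6 lists. A stretch without peaks cannot be told apart from a stretch without aligned reads in these lists. Outside the 992-kb stretch the unmarked genes were scattered. ZNF667, ZNF471 and ZNF470 were neighbouring zinc finger genes over 90.1 kb, a span that held the TSS of 1 other coding gene. ZNF534 and ZNF578 were neighbours over 24.4 kb and ZNF154 and ZNF671 over 18.4 kb, and 15 genes, ZNF714 among them, stood alone between marked ones.

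Genes that are widely reported as hypermethylated in tumours fell mostly on the unmarked side. Of the 11 annotated genes of that list, 8 had no H3K4me3 in any list (ZNF132, ZNF135, ZNF154, ZNF177, ZNF382, ZNF471, ZNF667 and ZNF671), against 12.4% of all 249. The other 3 carried it in all 6, with mean coverage of the promoter in siControl of 5568 bp at ZNF331, 1327 bp at ZNF582 and 1584 bp at ZNF677. The list was chosen with earlier results of these data known, so the 8 of 11 is a description and not independent evidence. DNA methylation was not measured in this series. The retroelement binders ZNF91 and ZNF93, which recognise SVA and LINE-1 elements, and ZNF274, which directs H3K9me3 to zinc finger gene ends, carried H3K4me3 in all 6 lists. At ZNF91 the covered bases were 984, 1085, 1346, 1153, 1068 and 1253 in library order. Their partners were marked too: 17 of 17 genes of the KRAB silencing pathway, including TRIM28, SETDB1, CBX5 and DNMT1, had H3K4me3 in all 6 lists, 16 of them had H3K27ac in 5 or 6, and H3K27me3 reached the promoters of TRIM28 in 2 lists and of DNMT1 in 1. Of all coding genes, 69.1% had H3K4me3 in all 6 lists, 46.2% H3K27ac in 5 or 6 and 32.9% H3K27me3 in at least 1.

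Nearly all unmarked zinc finger genes lacked H3K27me3 peaks at their start sites as well. This count includes the 9 genes of the 992-kb stretch, where absent peaks cannot be told apart from absent reads. Among the 31 without H3K4me3, H3K27ac was in 0 and H3K27me3 in 1 (3.23%), ZNF415, with 92 bp in siPHF13+TGFβ replicate 2 alone. Of the 368 other chromosome 19 genes without H3K4me3, 215 carried H3K27me3 in at least 1 list (58.4%), as did 49.4% of the 5412 such genes genome-wide and 7 of the 28 such ZNF genes on other chromosomes. None of the 3 marks was at a start site in any list for 30 of the 249 genes, a share no higher than among all coding genes (2657 of 20163, or 13.2%) and close to that of the other chromosome 19 genes (148 of 1231).

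CG content was close in marked and unmarked zinc finger promoters and far apart in other promoters. In the 300 bases from 250 before to 50 after the canonical TSS, the ratio of observed to expected CG dinucleotides had a median of 0.780 at the 218 genes with H3K4me3 and 0.657 at the 31 without. At the other chromosome 19 genes the medians were 0.849 (n = 800) and 0.297 (n = 368). A ratio of at least 0.6, a usual limit for CpG islands, was found at 23 of the 31 unmarked zinc finger promoters (74.2%) and at 42 of the 368 other unmarked promoters (11.4%). Within these CG-rich unmarked promoters, H3K27me3 was in at least 1 list at 1 of 23 zinc finger genes and at 21 of the 42 others. The 23 include ZNF729, ZNF98, ZNF492, ZNF99 and ZNF728 of the 992-kb stretch, where aligned reads may be absent. The highest ratios among the unmarked were 1.06 at ZNF549, 1.03 at ZNF667 and 1.01 at ZNF577, and the lowest were 0.158 at ZNF676 and 0.176 at ZNF404.

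**Figure D4:**
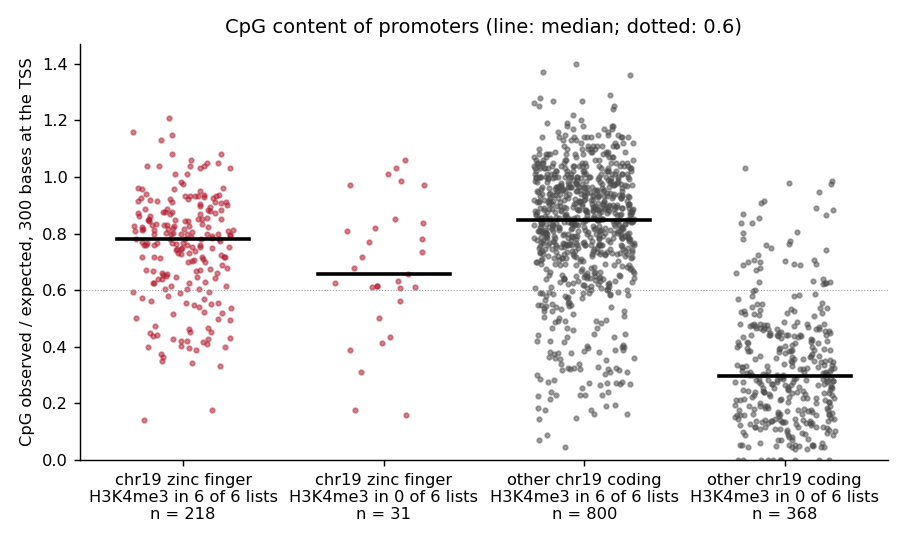
Ratio of observed to expected CG dinucleotides (vertical axis) in 300 bases at the TSS, for chr19 zinc finger genes (red) and other chr19 coding genes (grey) with H3K4me3 in 6 or in 0 of 6 lists; each point is a gene, the black line the median, the dotted line a ratio of 0.6. The medians are 0.780 and 0.657 for the zinc finger genes and 0.849 and 0.297 for the others.

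The ZNF154 and ZNF552 stretches above share a run with the opposite strand of ZNF132, and it was searched for because it was noticed there. The longest shared run, the 11 bases AAACTACATTA, was on either strand in the 300-base window of 6 of the 249 zinc finger genes (2.41%) and of 10 of all 20163 coding genes (0.0496%). Its last 10 bases, AACTACATTA, were in 17 of the 249 (6.83%), in 4 of the 1231 other chromosome 19 genes (0.325%), in 0 of the 266 ZNF genes elsewhere and in 28 of all coding genes (0.139%). The 10-base run lies inside the 11-base run, so the genes with the longer run are among those with the shorter. The 10-base run began 88 to 191 bases before the TSS, with a median of 118, and 16 of the 17 genes lie in the 57.7 to 59.0 Mb group of 43. It was on both sides of the H3K4me3 divide, at 14 of the 218 marked genes (6.42%) and 3 of the 31 unmarked (9.68%: ZNF154, ZNF814 and ZNF132). ZNF154, ZNF552 and ZNF132 had to carry the run because it was taken from them. They are counted in the shares of the zinc finger genes and of all coding genes. Among the unmarked genes with the run, only ZNF814 was not a source of it. In the unmarked ZNF154 the run starts 122 bases before the TSS and in the marked ZNF552 119 bases before it.

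H3K27ac followed H3K4me3 but varied with the library. Of the 218 genes with H3K4me3, 53 had H3K27ac in all 6 lists, 102 in 5, and 3 in none. These 3 were ZNF536, ZNF792 and ZNF541. The share of all 249 with H3K27ac was 61.4%, 81.5%, 86.3%, 81.5%, 22.1% and 85.5% in library order. All but 1 library thus lay above 60%, and the low library was the one with the short list. Genes acetylated in all 6 lists are by definition in it, so its 55 acetylated zinc finger genes set the upper limit of the 53. The median covered length in the acetylated promoters was 678, 822, 1257, 977, 320 and 1179 bp.

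Set against the other chromosome 19 genes, H3K27ac was more frequent at zinc finger promoters by a mean of 21.3 points (SD 10.9, range 2.19 to 28.2, above 0 in 6 of 6 libraries, exact p = 0.0312), and by 25.1 points without siPHF13+TGFβ replicate 1. With all lists cut to the 6004 strongest peaks it was 5.31 points (exact p = 0.0312). Among promoters with H3K4me3 in all lists the difference was 6.25 points (SD 7.76, range −5.15 to 12.2, above 0 in 4 of 6 libraries, exact p = 0.125), which did not pass. Against the ZNF genes of other chromosomes it was −0.367 points (SD 5.54, range −8.10 to 3.71, above 0 in 4 of 6 libraries, exact p = 0.844). The short-list library, siPHF13+TGFβ replicate 1, was among those below 0 (22.1% against 28.9%). The profile around the TSS was again compact: at 1950 bp downstream, H3K27ac covered 0% to 0.518% of the bin at marked zinc finger genes and 0.198% to 5.12% at the others.

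H3K27me3 was rare at zinc finger promoters. It was found in 1.20% to 2.81% of them per library, against 13.7% to 29.8% of the other chromosome 19 promoters. The difference averaged −21.7 points (SD 5.52, below 0 in 6 of 6 libraries, exact p = 0.0312), and −23.6 points without siPHF13+TGFβ replicate 1. It was also rarer than at the ZNF genes of other chromosomes, with a mean difference of −5.64 points, below 0 in 6 of 6 libraries (SD 2.41, exact p = 0.0312). In all, 9 of the 249 genes had it in any list, 8 of them together with H3K4me3 (3.21%, against 15.8% of the other chromosome 19 genes). The count of 9 was 18 with a TSS window of 2 kb each side and 4 with only the peaks of a −log10 q-value of at least 2, against 6625, 7628 and 4217 of all coding genes.

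ZNF536 and ZNF792 carried H3K4me3 and H3K27me3 in all 6 lists and H3K27ac in none. With the stricter q-value no zinc finger gene had H3K27me3 in all 6 lists, and with the wider window ZNF324B joined these genes. ZNF536 (chr19:30715798-31204493) encodes a repressor of neuronal differentiation, has a gene of 489 kb and stands alone, with no other zinc finger gene within 500 kb. H3K27me3 covered 2966, 6399, 5328, 4502, 2552 and 6008 bp of its TSS windows in library order. ZNF792 (chr19:35447258-35455133) had 1355, 2001, 1749, 1275, 224 and 1225 bp. In both genes the lowest value was that of siPHF13+TGFβ replicate 1, and the values of siControl and siControl+TGFβ overlapped.

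The other 7 genes were intermittent. ZNF574 had H3K27me3 in 5 lists with H3K27ac in 5, at 1422, 1528, 1883, 877, 0 and 1765 bp in library order. ZNF324B had it in 4 lists, at 407, 445, 0, 202, 527 and 0 bp. ZNF565 had it in 3, ZNF324 in 2, and ZNF444, ZNF773 and ZNF415 in 1 each. No group held H3K27me3 in both libraries of ZNF565, ZNF324, ZNF444, ZNF773 or ZNF415 except siControl at ZNF565, at 108 and 406 bp.

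The bodies of the zinc finger genes were nearly free of H3K27me3 once ZNF536 was set aside. H3K27me3 covered 1.02%, 3.53%, 2.52%, 2.61%, 0.308% and 2.62% of their summed length in library order, of which ZNF536 alone supplied 96.4% to 100%. Without that gene, left out after its share was seen, the values were 0.0392%, 0.0920%, 0.0591%, 0.0262%, 0% and 0.0432%. Over ZNF536 itself the covered share was 15.9%, 56.1%, 40.1%, 42.0%, 5.01% and 41.9%. Next came ZNF792, with a mean of 13.7%, ZNF574 with 3.31%, ZNF837 with 1.94% and ZNF132 with 1.61%. The other chromosome 19 genes stood at 2.45% to 11.2%, and the difference was −4.92 points (SD 1.92, below 0 in 6 of 6 libraries, exact p = 0.0312) or −5.47 points without siPHF13+TGFβ replicate 1. Against the ZNF genes of other chromosomes it was −0.115 points (SD 0.538, exact p = 0.719).

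The long exon near the end of these genes, which typically encodes the fingers, held H3K4me3 peaks away from any start site in a minority of genes. The longest coding exon had a median of 1540 bp in the zinc finger genes and 300 bp in the other chromosome 19 genes, and in 239 of them it had bases outside all TSS windows. H3K4me3 peaks lay there in 6, 31, 26, 15, 3 and 17 genes in library order, or 1.26% to 13.0% of the 239, against 3.06% to 5.00% of all coding genes and 4.52% to 7.85% of the other chromosome 19 genes, so that the zinc finger genes were below both in some libraries and above both in others. These shares do not allow for the longer exons of the zinc finger genes. Of the exon bases, H3K4me3 covered 0.185% to 3.05%, against 2.54% to 4.34% in the other chromosome 19 genes, and less in each of the 6 libraries. The share of bases was above that of all coding genes only in siControl replicate 2 (3.05% against 2.81%). H3K27ac was there in 0 genes in all 6 lists, against 0.0924% to 2.09% of all coding genes. H3K27me3 was there in 1 gene in siControl+TGFβ replicate 2 and in 0 genes in the other 5 lists, against 3.68% to 15.5% of all coding genes. The values of the 3 groups overlapped.

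A single neighbourhood held the steadiest of these exon peaks. ZNF546, ZNF780B and ZNF780A are the 3 genes of the 40.5 to 40.6 Mb group. The 1691-bp exon of ZNF780A (chr19:40580426-40582116) was covered by 769, 1691, 1404, 1602, 302 and 1691 bp in library order, and it was the only such exon with a peak in all 6 lists. ZNF546 had one in 5 lists, at 198, 775, 382, 559, 0 and 1001 bp. ZNF780B had one in 4 lists, at 0, 385, 824, 693, 0 and 553 bp.

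TGFβ was compared with siControl to ask which zinc finger promoters changed their marks during the induced transition. For H3K4me3 the set of marked promoters did not change at all: 0 of 249 were gained (marked in both libraries of one group and in neither of the other, against 0.169% of all coding genes) and 0 lost (0.00496% of all). For H3K27ac the share rose from a mean of 71.5% (SD 14.2, n = 2) to 83.9% (SD 3.41, n = 2), a difference of 12.4 points against a pooled SD of 10.3, which did not pass (exact two-sided permutation test, p = 0.667, where 2 against 2 libraries allow no p below 0.333). With lists cut to equal length the difference was 3.01 points. Promoters that gained H3K27ac numbered 6 (2.41%, against 1.54% of all coding genes) and 0 lost it (0.00496% of all). For H3K27me3 the means were 2.41% (SD 0.568) and 2.01% (SD 0.568), a difference of −0.402 points (exact p = 0.667), with 0 gained (0.273% of all) and 0 lost (0.491% of all). These zeros became 1 gained without siControl+TGFβ replicate 1, 1 lost without siControl replicate 1 and 2 lost without siControl+TGFβ replicate 2, where 0.813%, 3.60% and 1.32% of all coding genes were called.

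The 6 promoters that gained H3K27ac with TGFβ all carried H3K4me3 throughout, as did every zinc finger promoter with H3K27ac in any list. In siControl+TGFβ, ZNF763 had 996 and 567 bp of H3K27ac, ZNF600 950 and 621 bp, ZNF552 723 and 191 bp, ZNF283 680 and 260 bp, ZNF418 591 and 208 bp, and ZNF175, known as a repressor of HIV transcription, 313 and 281 bp. Each was at 0 in both siControl libraries, as the definition of a gain requires. With siPHF13+TGFβ each was at 0 in replicate 1 and present in replicate 2, at 448 bp (ZNF418) to 752 bp (ZNF175). Replicate 1 of that group has the shortest list, whose part in the result was not tested. The count itself depends on single libraries: it was 50 without siControl replicate 2 (20.1%, against 7.74% of all coding genes) and 12 without siControl+TGFβ replicate 2 (4.82%, against 4.93%).

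PHF13 depletion was compared with siControl+TGFβ to ask which marks at these promoters depend on PHF13 under TGFβ. For H3K4me3, 0 of 249 promoters were gained (0.00496% of all coding genes) and 0 lost (0.451% of all). The H3K27ac share went from a mean of 83.9% to 53.8% (SD 44.9, n = 2), a difference of −30.1 points with a pooled SD of 31.8 (exact p = 0.667). This difference rests on replicate 1: without it the difference was 1.61 points in the other direction, and with lists cut to equal length it was −2.81 points. There were 0 promoters gained (0.00496% of all) and 0 lost (0.248% of all) for H3K27ac, and 0 gained (0.0843% of all) and 0 lost (1.14% of all) for H3K27me3, whose share went from 2.01% to 1.41% (SD 0.284, difference −0.602 points, exact p = 0.667). Leaving out siPHF13+TGFβ replicate 2 turned the 0 lost H3K27ac promoters into 148 (59.4%, against 34.4% of all coding genes) and the 0 lost H3K27me3 promoters into 1 (0.402%, against 1614 of the 20163 coding genes). Only the library with the short list then stood for depletion. The counts lost for H3K27ac and H3K27me3 were 2 (0.803%, against 1.67% of all coding genes) and 1 (0.402%, against 3.04%) without siControl+TGFβ replicate 2. They were 0 (against 0.362%) and 2 (0.803%, against 2.58%) without siControl+TGFβ replicate 1. For H3K27me3, 1 was gained (0.402%, against 1.02% of all coding genes) without siPHF13+TGFβ replicate 1. Coverage of the gene bodies by H3K27me3 differed by 0.289 points with TGFβ (pooled SD 1.26, exact p = 1.00; −0.969 without siControl replicate 1) and by −1.10 points with depletion (pooled SD 1.15, exact p = 1.00; 0.0515 without siPHF13+TGFβ replicate 1).

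H3K4me3 width was tested gene by gene with limma, over the 13933 coding genes with a peak in all 6 lists, of which 218 were zinc finger genes of chromosome 19. With TGFβ 0 of the 218 passed an adjusted p of 0.05 in either direction (0% of all genes tested passed as wider and 0% as narrower). At an unadjusted p under 0.05, 7 were wider (3.21%, against 3.09% of all genes) and 0 narrower (0.0359% of all). With depletion 0 passed after adjustment (0% of all in either direction), and at an unadjusted p under 0.05, 0 were wider (0.0144% of all) and 20 narrower (9.17%, against 9.18% of all). The median log2 change was 0.10 with TGFβ (0.11 over all genes) and −0.19 with depletion (−0.21 over all genes), or −0.08 with depletion when siPHF13+TGFβ replicate 1 was left out. Without siPHF13+TGFβ replicate 2 it was −0.28 (−0.33 over all genes), and 2 of the 218 passed as narrower (0.917%, against 3.70% of all genes). That fit left the short-list library alone in its group and assumed that it varies like the libraries of the other groups. The smallest unadjusted p with TGFβ belonged to ZNF614, with a log2 change of 0.32 (SE 0.10, adjusted p = 0.884 in the limma fit across all genes).

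**Figure D5:**
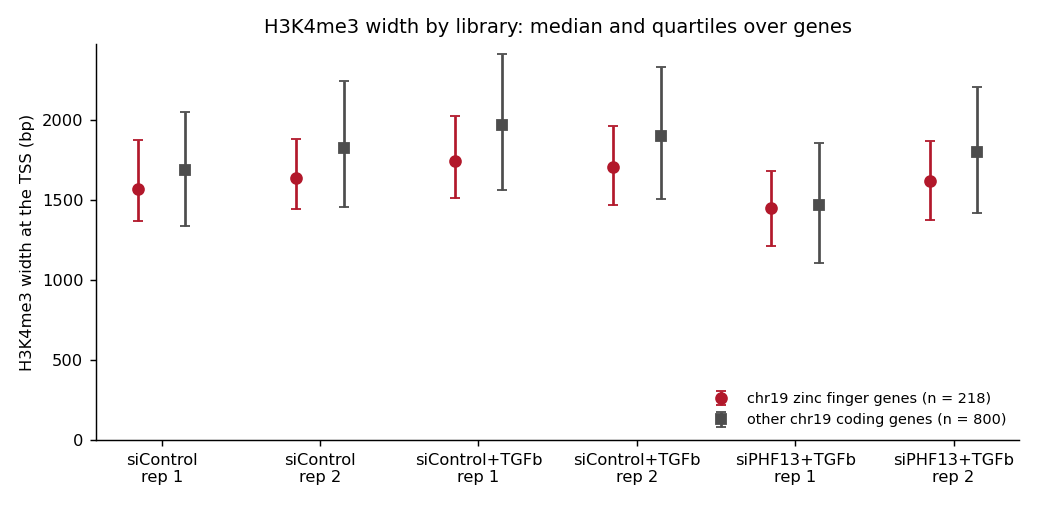
H3K4me3 width at the TSS (bp, vertical axis from 0) in each of the 6 libraries, as the median over genes with bars from the lower to the upper quartile, for the 218 chr19 zinc finger genes (circles) and the 800 other chr19 coding genes (squares) with a peak in all lists. The zinc finger medians run from 1447 bp in siPHF13+TGFβ replicate 1 to 1745 bp in siControl+TGFβ replicate 1 and lie below those of the other genes in every library.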

How the data were processed

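Peak lists from ChIP-seq of H3K4me3, H3K27ac and H3K27me3 in 18 libraries of PANC-1 cells, 2 per group, were used. The authors trimmed reads with Trim Galore 0.4.1, aligned them to hg19 with Bowtie2 2.4.1, removed duplicates with Picard and called peaks per library against input with MACS2 2.2.7.1, narrow for H3K4me3 and H3K27ac and broad for H3K27me3; the notes also name deepTools 3.5.0. The deposited lists give peak coordinates, used here, and the −log10 q-value of each peak, used only to rank or filter. The 6 inputs were not analysed here. The lists hold no read counts, so depth is unknown and no interval is given.

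Genes, start sites and exons came from GENCODE release 44 (GRCh37), and overlapping peaks were merged. Shares were compared by exact permutation over libraries, and log2 width by limma 3.58.1 (R 4.3.3) in 1 fit of 3 groups with Benjamini-Hochberg adjustment over all genes. Python 3.11.15 and NumPy 2.4.6 were used, and the code was tested on simulated data. Genes named are members of fixed lists, of classes of 5 or fewer, gained or lost promoters, the 5 widest for H3K4me3, the 5 with most body H3K27me3 and the ends of clusters; ZNF730, the borders and members of unmarked runs, the exon and motif examples, the extremes of CG content, ZNF614 and the printed ZNF729 were named after their values were seen. The zinc finger genes and the lists were chosen with earlier results of these data known. ZNF781 and PECAM1 of those lists had no entry among the coding genes used. The hypermethylated list rests on general knowledge of tumours and not on these samples.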

Additional observations from a re-analysis of the deposited data

How the results depend on the processing

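Of 239 recomputed values of 30 results, 195 kept their direction and side of the threshold or stayed within the spread between libraries. Shares with H3K4me3, 0 points apart in both comparisons, became 0.602 (TGFβ) and −0.402 points (depletion) with the gene 5′ end as the only TSS, and −0.201 (depletion) with at least 200 bp covered. With lists of equal length, 2 promoters lost H3K27ac with TGFβ, 1 gained it and 2 lost it with depletion, 1 lost H3K27me3 with TGFβ, and the H3K27me3 share difference with TGFβ was 0. With a TSS window of 2 kb each side, 1 promoter lost H3K27me3 with TGFβ and 1 gained it with depletion, and the share difference with depletion was 0.402 points. The shares of all coding genes under these settings are not given, so the gained and lost counts cannot show whether the zinc finger genes differ. Filtering on −log10 q (at least 3, or 2 for H3K27me3) gave 0.402 points for the H3K27me3 share and −0.196 for gene bodies with TGFβ. Without ZNF536, an alternative chosen after seeing the data, the latter was −0.0229. Centring each library gave median log2 width changes of −0.02 and 0.02. The cause was not tested in these cases.

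Leaving out each replicate in turn gave 6 to 50 gains of H3K27ac with TGFβ, and 0 to 148 losses with a share difference of −61.8 to 1.61 points with depletion. For H3K27me3 it gave −0.803 to 0 points, 0 to 1 gains and 0 to 2 losses with TGFβ, 0 to 1 gains and 0 to 2 losses with depletion, and gene body differences of −0.969 to 1.55 and −2.26 to 0.0515 points. For H3K4me3 width with depletion it gave 0 to 2 narrower genes (at most 3.70% of all genes tested) and medians of −0.28 to −0.08, with a lone library assumed to vary like the other groups. Against other chromosome 19 genes the differences were 19.7 (H3K4me3), 25.1 (H3K27ac) and −23.6 points (H3K27me3) without siPHF13+TGFβ replicate 1, and −5.47 to −4.36 for gene bodies, each at an exact p = 0.0625, the smallest that 5 libraries allow.

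Deviations of H3K4me3 width from the group means correlated at −0.343 (siControl and siControl+TGFβ), 0.545 (siControl and siPHF13+TGFβ) and −0.323 (siControl+TGFβ and siPHF13+TGFβ). The signs match list length: replicate 1 had the shorter H3K4me3 list in siControl and siPHF13+TGFβ and the longer in siControl+TGFβ. With 2 libraries per group the correlations therefore cannot show whether the replicate numbers pair the libraries, which were treated as unpaired. With a replicate block the differences in share with H3K27ac stayed at 12.4 and −30.1 points (exact p = 1.00), the limma counts stayed at 0, the median width changes stayed at 0.10 and −0.19, and no call changed. Without read counts, the depth that limits each list is unknown.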
